A study of Homo sapiens with 12 samples.

Results

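HT29 cells, a line from a human colorectal adenocarcinoma, were kept for 24 h with a water extract of Aconitum carmichaeli Debeaux (ACD) at 20 µg/mL, the low dose, or with the vehicle, and their RNA was sequenced. The comparison holds 6 of the 12 HT29 libraries, chosen by their titles: 3 of the low dose and 3 of the vehicle, which the study's methods give as PBS with 2% DMSO. The labels give the DMSO for the vehicle only. By the study's methods the extract stock was also made in PBS with 2% DMSO, which is the share in that solution and not in the medium. The labels do not say whether the 3 libraries of a group came from separate experiments. The p-values therefore measure a spread between libraries of a group that may be technical. This spread was estimated over all 12 libraries. The other 6 libraries, 3 at 100 µg/mL (medium dose) and 3 at 500 µg/mL (high dose), entered the fit and are given where they show how a low dose gene behaved as the dose grew. A treatment note kept with the libraries describes an extract of another herb, Poria cocos, while the titles and the treatment field name ACD.

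All 12 epithelial and intestinal markers checked for HT29, among them EPCAM, KRT20, CDX2 and VIL1, had a level over 1 CPM (counts-per-million of the TMM-scaled library total), with a sum of 11495 to 13562 CPM in the vehicle libraries and 11662 to 12772 CPM at the low dose. Of 8 leukocyte markers, CD3E, CD3D and MS4A1 had no count in the 6 libraries, and the summed level of the list was 4.27 to 6.22 CPM in the vehicle and 4.33 to 6.13 CPM at the low dose. The 12 fibroblast and endothelial markers summed to 3.47 to 4.09 and 3.74 to 4.79 CPM, with COL1A2, DCN and PDGFRA at 0. The 10 astrocyte markers summed to 6.90 to 7.10 and 6.80 to 8.42 CPM, with AQP4, SLC1A3, S100B, OLIG2 and FABP7 at 0. Also over 1 CPM were CD14 and ITGAM (leukocyte), COL1A1 and PECAM1 (fibroblast and endothelial) and ALDH1L1 (astrocyte). The highest means of these lists were 3.48, 1.86 and 6.53 CPM, and the lowest mean of an epithelial marker was 1.24 CPM. The libraries held 18260755 to 31811972 expected counts in the vehicle group and 21454319 to 28632984 at the low dose, and 15374 of 60675 gene IDs had enough counts to be tested. High-dose replicate 2 stood apart, with a spread of 0.496 (SD of log2 CPM against the other high-dose libraries), compared with 0.108 to 0.208 in the vehicle and 0.115 to 0.148 at the low dose.

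The genes below fall into a few families. The aryl hydrocarbon receptor (AhR) is a ligand-activated transcription factor that pairs with ARNT, binds DNA at a short core motif and switches on enzymes that oxidise foreign compounds, among them the cytochromes P450 CYP1A1 and CYP1B1, together with its own inhibitors. NF-kB is a family of factors held back by IkB proteins. Once released, it drives chemokines such as CXCL1, CXCL8 and CCL20, which draw leukocytes to an inflamed epithelium, and PIGR, the receptor that carries IgA across it. Genes of the interferon response are switched on by a complex that holds IRF9.

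At the low dose, 17 genes passed an adjusted p of 0.05 in edgeR's quasi-likelihood test with a fold change over 1.5 (DEGs), which is 0.111% of the 15374 genes tested. Of these, 10 (0.065%) rose and 7 (0.0455%) fell. In bulk RNA, fewer cells that carry a transcript and less of it per cell cannot be told apart. The upregulated genes were the AhR targets CYP1A1, CYP1B1 and TIPARP, the retinaldehyde dehydrogenase ALDH1A3, the chemokine CXCL1, the complement component C3, PIGR, the LY6 family gene LY6G5B, the glycosidase gene PGGHG and RN7SL2, the RNA of the signal recognition particle. Protein-coding genes made up 9 of the 10 upregulated and 0 of the 7 downregulated genes, and 81% of all genes tested. Of the 7, ENSG00000280614 and ENSG00000281181 have the same sequence and are not separate results. The vehicle and low dose libraries did not overlap in any of the 17 genes, where non-overlap held for 11.4% of all genes tested in the upward and 9.61% in the downward direction. The 17 genes were picked by their p in these same libraries, so this is not separate evidence for them. The same threshold gave 104 DEGs (0.676%) at the medium and 451 (2.93%) at the high dose, each against the same 3 vehicle libraries. The count depended on the fit, since vehicle and low dose fitted alone gave 51 DEGs, and the fit without high-dose replicate 2 gave 109. Without vehicle replicate 2 it was 10. In total, 9 of the 17 genes were DEGs in every alternative fit that tested them, among them ALDH1A3, CXCL1, CYP1B1, CYP1A1, TIPARP, LY6G5B, ENSG00000280614 and ENSG00000281181.

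**Figure D1:**
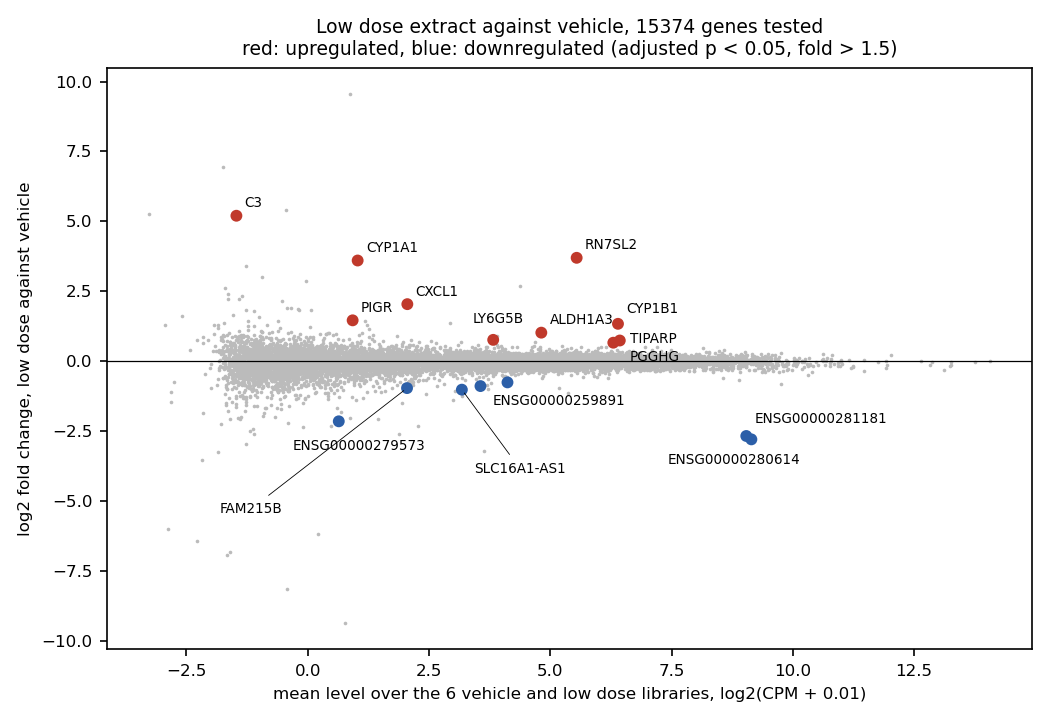
Log2 fold change of each of the 15374 genes tested at the low dose against vehicle (vertical axis) by mean level in log2(CPM + 0.01) over the 6 libraries (horizontal axis). The 10 upregulated genes are red and the 7 downregulated genes blue, and C3, RN7SL2 and CYP1A1 have the highest fold changes among the red points.

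CYP1A1, the cytochrome P450 best known as a reporter of AhR, was near the limit of detection in the vehicle, at 0.110, 0.394 and 0.352 CPM (2, 13 and 8 counts), and at 5.84, 2.18 and 3.31 CPM at the low dose (170, 62 and 74 counts). It rose by 3.60 ± 0.43 (SE) on the log2 scale (adjusted p = 0.00356). Low-dose replicate 1 was the highest and all 3 libraries lay above every vehicle library. CYP1B1, a second P450 of the same family, was at 43.98, 47.5 and 51.8 CPM in the vehicle and at 155, 101 and 106 CPM at the low dose, a log2 fold change of 1.34 ± 0.15 (adjusted p = 0.0027). TIPARP encodes a mono-ADP-ribosyltransferase that dampens AhR. Its levels were 61.3, 64.1 and 68.7 CPM in the vehicle and 121, 96.5 and 106 CPM at the low dose (log2 fold change 0.74 ± 0.09, adjusted p = 0.00356). In each of these 3 genes low-dose replicate 1 had the highest level. ALDH1A3, which makes retinoic acid, had the smallest p of all genes. It was at 17.7, 18.9 and 19.2 CPM in the vehicle and at 43.3, 33.0 and 36.8 CPM at the low dose, and rose by 1.02 ± 0.10 on the log2 scale (adjusted p = 0.00177), with the highest level again in low-dose replicate 1.

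To show what lies just before the start of these genes, the 250 bases upstream of the first start listed in RefSeq are given for CYP1A1 (GRCh38, chr15:74725529-74725778, minus strand), ALDH1A3 (chr15:100879581-100879830, plus strand) and TIPARP (chr3:156674340-156674589, plus strand, the first of 3 listed starts). Capitals mark GCGTG, the core of the AhR motif, or its reverse complement CACGC. CYP1A1 holds 1 match, 57 to 53 bases before the start, and ALDH1A3 and TIPARP hold 2 each.
CYP1A1: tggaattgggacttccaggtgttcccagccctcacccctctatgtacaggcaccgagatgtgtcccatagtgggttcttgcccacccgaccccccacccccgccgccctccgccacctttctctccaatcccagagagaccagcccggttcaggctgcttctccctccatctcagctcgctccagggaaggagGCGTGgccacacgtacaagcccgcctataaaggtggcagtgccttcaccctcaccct
ALDH1A3: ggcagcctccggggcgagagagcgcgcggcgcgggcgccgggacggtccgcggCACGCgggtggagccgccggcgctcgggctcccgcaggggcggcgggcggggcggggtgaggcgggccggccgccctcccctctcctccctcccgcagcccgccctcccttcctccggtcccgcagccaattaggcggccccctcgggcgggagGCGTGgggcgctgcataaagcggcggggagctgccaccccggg
TIPARP: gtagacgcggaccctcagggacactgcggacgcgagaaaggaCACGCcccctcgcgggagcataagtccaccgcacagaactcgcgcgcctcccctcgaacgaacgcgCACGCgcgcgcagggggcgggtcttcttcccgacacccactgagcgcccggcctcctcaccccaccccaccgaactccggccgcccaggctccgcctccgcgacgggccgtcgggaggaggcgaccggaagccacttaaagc
The match is a description of letters only. Over all 35116 promoter windows of this length in the table, 32.2% hold GCGTG on either strand, and among the 6 tested AhR list members with an entry 4 do (CYP1A1, TIPARP, AHRR and UGT1A6).

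The AhR list held 9 genes, of which 8 were tested. At the low dose 3 of the 8 rose as DEGs, and 4 were higher at an unadjusted p under 0.05 and 0 lower, where 3.38% of all genes were higher and 4.58% lower. All 8 log2 fold changes were above 0, with a median of 0.28, compared with 49.7% of genes above 0 and a median of −0.0014 over all genes. ALDH3A1, an aldehyde dehydrogenase of the same battery, was at 22.9, 21.5 and 20.7 CPM in the vehicle and at 26.7, 27.2 and 29.1 CPM at the low dose, which did not pass the test (log2 fold change 0.35 ± 0.07, adjusted p = 0.099). The conjugating enzyme UGT1A6 had a log2 fold change of 0.13 ± 0.12. The receptor AHR itself was at 99.7 to 114 CPM in the vehicle and 106 to 111 CPM at the low dose, and its partner ARNT and repressor AHRR had log2 fold changes of 0.18 and 0.22, none of which passed the test.

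The levels of the AhR targets and of ALDH1A3, which is on no list, at the other doses are given beside the low dose, all against the same vehicle libraries. CYP1A1 was at a mean of 3.78 CPM at the low, 90.0 CPM at the medium and 98.4 CPM at the high dose, and the test of high against low gave a log2 difference of 4.69 ± 0.25 (adjusted p = 6.9e-07). For CYP1B1 the means were 121, 386 and 335 CPM, with a high minus low difference of 1.47 ± 0.14 (adjusted p = 0.00016). TIPARP was at 108, 174 and 185 CPM, and the difference was 0.77 ± 0.09 (adjusted p = 0.00036). ALDH1A3 was at 37.7, 99.8 and 73.8 CPM, with a difference of 0.97 ± 0.09 (adjusted p = 0.00016). In all 4 genes the high-dose libraries lay above every low-dose library. The share of all genes without overlap between the high and the low dose was not counted. ALDH3A1 and UGT1A6, which had not passed the test at the low dose, were higher at the high than at the low dose by 1.47 ± 0.07 (adjusted p = 2.4e-07) and 0.68 ± 0.12 (adjusted p = 0.007) on the log2 scale.

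**Figure D2:**
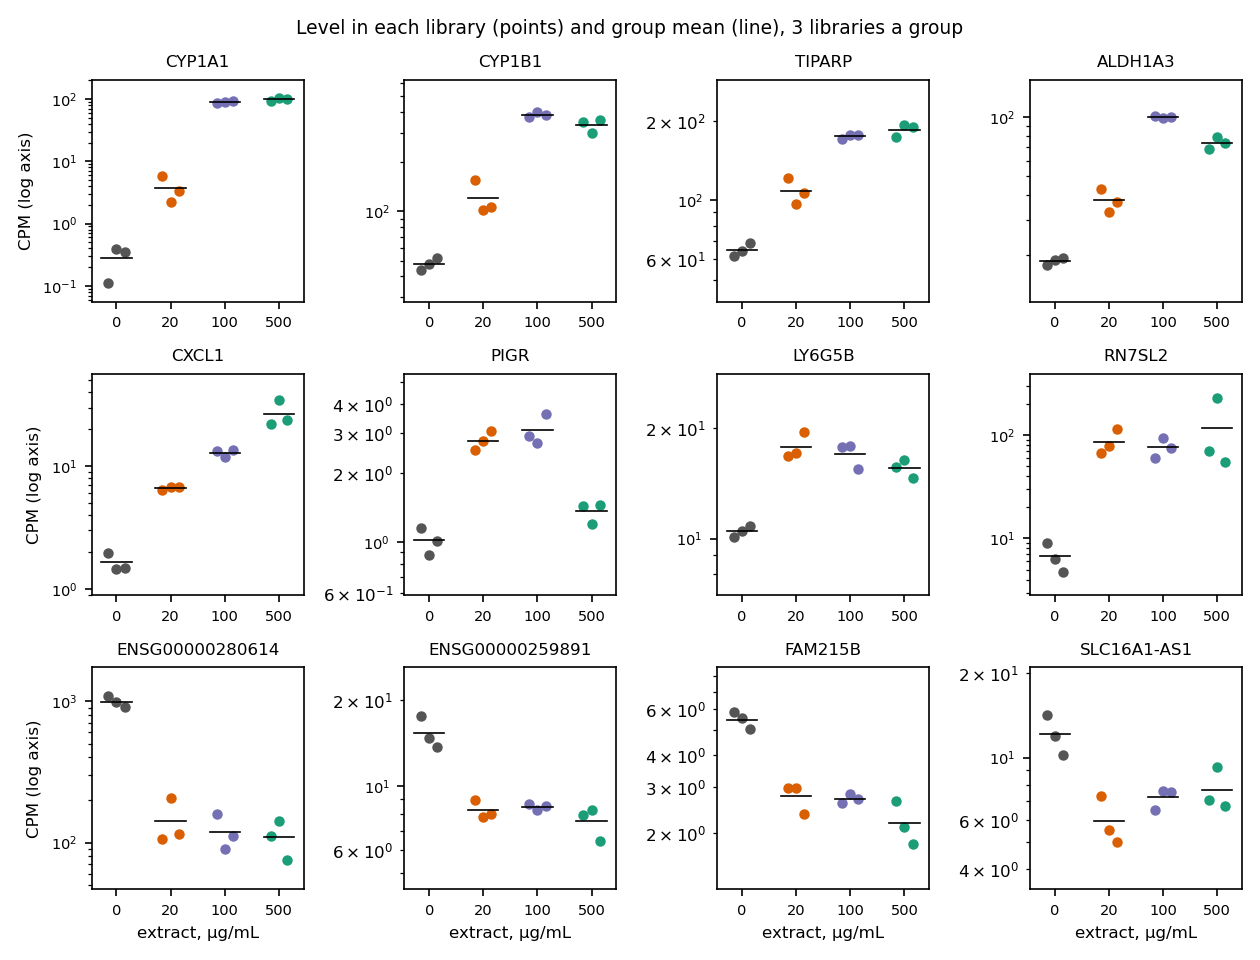
CPM in each library on a log axis for 12 of the DEGs, by extract concentration (0 is the vehicle), with a line at each group mean. CYP1A1, CYP1B1, TIPARP, ALDH1A3 and CXCL1 stand between the vehicle and the higher doses at 20 µg/mL, whereas LY6G5B, RN7SL2, ENSG00000280614 and FAM215B have low dose points in the range of the high dose or close to it, and PIGR is lower at 500 than at 20 µg/mL.

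CXCL1, a chemokine for neutrophils, was at 1.98, 1.45 and 1.49 CPM in the vehicle (118 counts in all) and at 6.35, 6.77 and 6.80 CPM at the low dose (529 counts). It rose by 2.04 ± 0.20 on the log2 scale (adjusted p = 0.00177), and the 3 low dose libraries lay within a narrow range. PIGR was at 1.16, 0.879 and 1.01 CPM in the vehicle and at 2.51, 2.75 and 3.04 CPM at the low dose, a log2 fold change of 1.46 ± 0.18 (adjusted p = 0.0038). C3, the central component of complement, which is also made by epithelia, had 1, 0 and 0 counts in the vehicle and 14, 23 and 17 counts at the low dose. Given its 1 vehicle count, the depth-adjusted ratio of low to vehicle was 50.0 with an exact 95% interval of 8.60 to 2011, which covers counting error only (adjusted p = 0.00799). C3 overlaps GPR108 on the same strand, whose log2 fold change was −0.06 ± 0.09.

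The 250 bases upstream of the start are shown for CXCL1 (chr4:73869143-73869392, plus strand) and for CXCL8 (chr4:73740319-73740568, plus strand), the member of the same chemokine family with the highest level here. Capitals mark GGANTTTCC, a form of the NF-kB motif, which was searched on both strands. It lies 78 to 70 bases before the start in CXCL1 and 91 to 83 bases before it in CXCL8.
CXCL1: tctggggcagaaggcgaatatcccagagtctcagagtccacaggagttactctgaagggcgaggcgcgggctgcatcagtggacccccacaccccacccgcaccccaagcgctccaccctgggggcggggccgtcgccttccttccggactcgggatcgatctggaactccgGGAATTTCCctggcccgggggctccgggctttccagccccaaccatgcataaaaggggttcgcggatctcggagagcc
CXCL8: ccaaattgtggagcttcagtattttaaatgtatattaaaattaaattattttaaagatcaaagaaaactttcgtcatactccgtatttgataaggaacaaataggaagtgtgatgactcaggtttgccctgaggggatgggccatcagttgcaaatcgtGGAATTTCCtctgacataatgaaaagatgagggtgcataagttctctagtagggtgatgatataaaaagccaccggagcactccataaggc
Of all 35116 windows, 1.45% hold this motif, and 10 of the 17 tested NF-kB list members with an entry do. The windows of PIGR and CCL20 hold no match to these letters.

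The NF-kB list held 20 tested genes. CXCL1 and PIGR were its DEGs, 11 members were higher at an unadjusted p under 0.05 and 0 lower (3.38% and 4.58% of all genes), and the libraries did not overlap in 12 of 20, all upward (11.4% of all genes). All 20 log2 fold changes were above 0, with a median of 0.45. The number of DEGs on the list changed with the fit. It was 4 with DESeq2 on all 12 libraries, where 24 of 15374 genes were upregulated DEGs. Without vehicle replicate 2 it was 1, where 6 of 15625 genes were. The largest values of the list were those of chemokines and of PIGR. CXCL8 was at 4.95, 4.18 and 3.73 CPM in the vehicle and at 10.6, 10.4 and 11.7 CPM at the low dose, with a log2 fold change of 1.35 ± 0.27 that did not pass the test (adjusted p = 0.099). CCL20, which attracts dendritic cells and lymphocytes, was at 0.220, 0.364 and 0.483 CPM in the vehicle and at 1.17, 1.304 and 1.61 CPM at the low dose (1.88 ± 0.36, adjusted p = 0.0762). In both genes every low dose library lay above every vehicle library. CXCL2 and CXCL3 had log2 fold changes of 1.09 ± 0.27 and 0.82 ± 0.25 (adjusted p = 0.233 and 0.345), and CXCL6, the tested protein-coding gene nearest to CXCL1, had 1.90 ± 0.35 (adjusted p = 0.07). BIRC3, an inhibitor of apoptosis, and ICAM1, an adhesion molecule for leukocytes, had 0.48 ± 0.12 and 0.45 ± 0.12 (adjusted p = 0.198 and 0.277). The factors and their inhibitors were closer to 0, with 0.06 for NFKB1, 0.24 for NFKB2, 0.11 for RELB, 0.13 for NFKBIA and 0.21 for NFKBIE. MIR3142HG, a microRNA host transcript, had 0 counts in each vehicle library and 4, 7 and 4 at the low dose (adjusted p = 0.0667). Its low dose level was 4.63 times a floor of 3 counts over the vehicle group, with no allowance for counting error. It passed the filter on low counts only through the higher doses. The means were 0.188, 0.443 and 0.586 CPM at the low, medium and high dose.

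At the high dose CXCL1 was at 22.2, 34.5 and 23.8 CPM and exceeded the low dose by 2.00 ± 0.16 on the log2 scale (adjusted p = 2.4e-05). CCL20 and CXCL8 exceeded it by 2.12 ± 0.26 and 1.72 ± 0.24 (adjusted p = 0.00057 and 0.002). PIGR went the other way. It was at 1.44, 1.20 and 1.45 CPM at the high dose, lower than at the low dose by a log2 difference of −0.995 ± 0.17 (adjusted p = 0.0063), with no overlap between the libraries of these doses, and its mean of 3.07 CPM at the medium dose was close to the 2.77 CPM of the low dose. Of the 17 DEGs of the low dose, 8 differed between the high and the low dose at an adjusted p of 0.05, where 2.98% of all genes did (1.58% with the minimum fold as well). In 7 of these 8, among them CYP1A1, CYP1B1, TIPARP, ALDH1A3, CXCL1 and C3, the high dose was further from the vehicle, and in PIGR it was nearer. For the other 9 no difference between the doses was called. The test of high against low reuses the low dose libraries by which the 17 genes were picked. The shares of all genes are therefore not a like background for them.

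**Figure D3:**
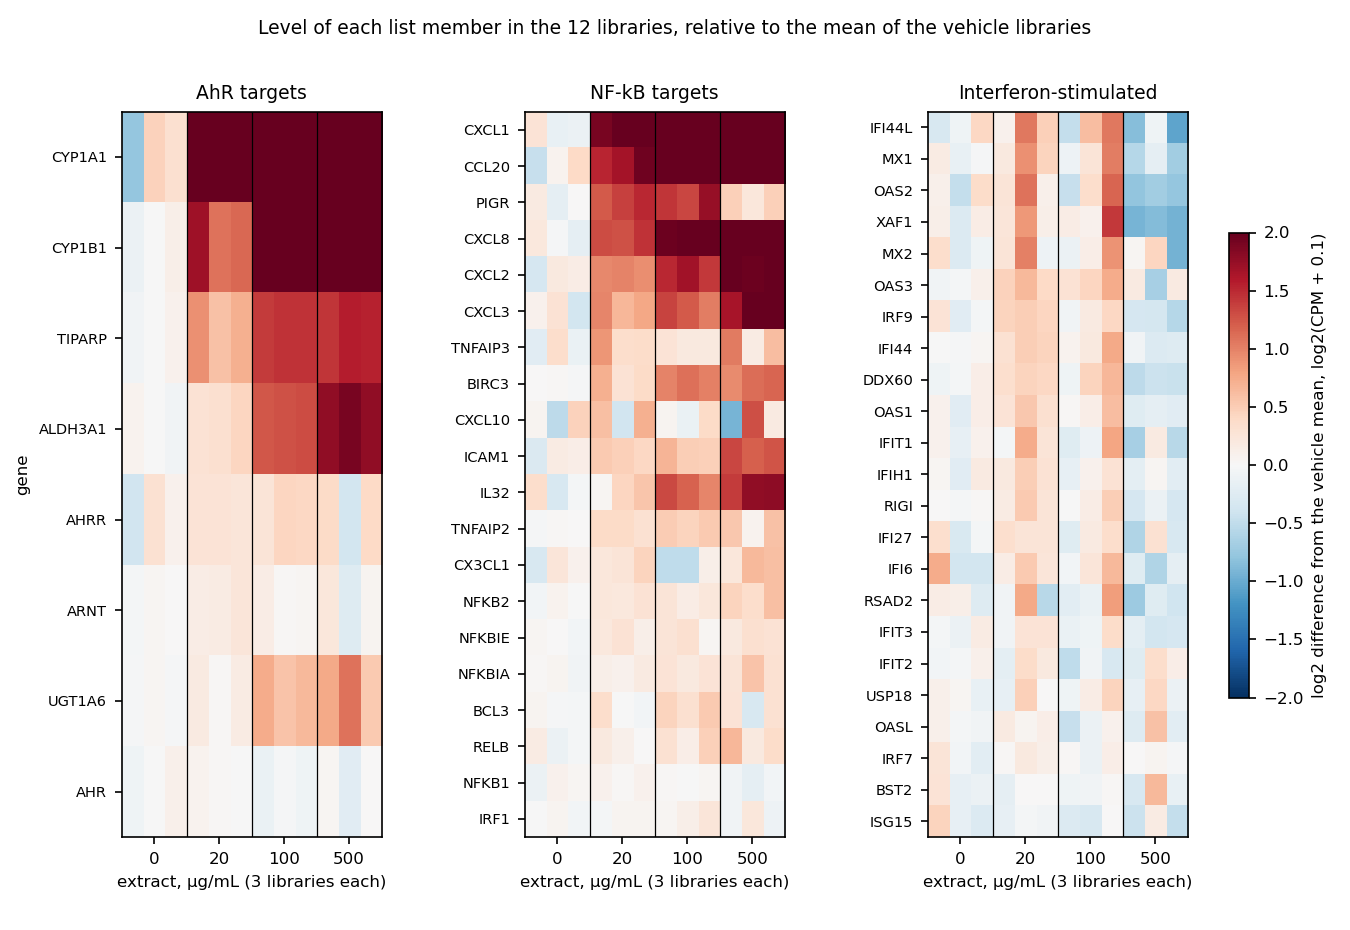
Each cell is the log2(CPM + 0.1) of a list member in 1 of the 12 libraries minus the mean of the 3 vehicle libraries (colour scale from −2 to 2, values beyond it take the end colour), for members of the AhR, NF-kB and interferon lists. CYP1A1, CYP1B1, TIPARP, CXCL1, CCL20 and CXCL8 are further above the vehicle mean at 500 than at 20 µg/mL and PIGR is nearer to it, while the interferon list has a median of 0.33 at 20 µg/mL and −0.24 at 500 µg/mL, with members on both sides of 0 at each dose.

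The interferon-stimulated genes held 24 tested members and no DEG. At the low dose 8 were higher at an unadjusted p under 0.05 and 0 lower (3.38% and 4.58% of all genes), 22 of 24 were above 0, and the median log2 fold change was 0.33. IRF9, which carries the interferon signal to DNA, was at 16.8, 11.9 and 13.6 CPM in the vehicle and at 19.0, 19.7 and 18.8 CPM at the low dose (0.45 ± 0.14, adjusted p = 0.369). The low dose libraries lay above the vehicle libraries. The antiviral enzymes OAS3 and OAS1 and the RNA sensors DDX60, RIGI and IFIH1 had log2 fold changes of 0.33 to 0.50, with adjusted p of 0.518 to 0.591. Single libraries weighed on the list. The median difference of its members from the vehicle mean was 0.19, 0.49 and 0.26 in the 3 low dose libraries. Without low-dose replicate 2 the count of higher members was 2 and the median 0.19, where 324 of 15642 genes were higher. Without vehicle replicate 2 the count was 2 and the median 0.27, where 413 of 15625 genes were higher. With any other library of these groups left out, the count was 6 to 9 and the median 0.38 to 0.40. In those fits 323 to 574 of all genes were higher.

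Some of these genes were lower at the high than at the low dose. Of the 24, 23 had a high minus low difference below 0, with a median of −0.60, and 4 were DEGs (0.833% of all genes were lower DEGs in this comparison): IRF9 with −0.88 ± 0.14 (adjusted p = 0.0042), DDX60 with −0.88 ± 0.16 (adjusted p = 0.01), RIGI with −0.60 ± 0.13 (adjusted p = 0.033) and OAS1 with −0.60 ± 0.15 (adjusted p = 0.048). IRF9 was at 11.03, 10.9 and 9.38 CPM at the high dose, below every low dose library. This comparison uses the same low dose libraries as the one with the vehicle. Against the vehicle, the median of the list was 0.23 at the medium and −0.24 at the high dose, with 0 DEGs at either.

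The remaining protein-coding DEGs belong to no list. LY6G5B, a small gene of the major histocompatibility region, was at 10.1, 10.5 and 10.9 CPM in the vehicle and at 16.8, 17.2 and 19.5 CPM at the low dose (0.76 ± 0.09, adjusted p = 0.00356). It overlaps CSNK2B on the same strand, which was at 133 and 128 CPM (log2 fold change −0.06 ± 0.09). PGGHG, which removes glucose from the hydroxylysine-linked sugars of collagen, was at 60.9, 64.2 and 57.9 CPM in the vehicle and at 93.5, 99.9 and 96.1 CPM at the low dose (0.66 ± 0.11, adjusted p = 0.0446), and was a DEG in 7 of 16 alternative fits (highest adjusted p 0.246). For neither gene was a difference between the high and the low dose called, with high minus low differences of −0.20 ± 0.09 and 0.08 ± 0.11 on the log2 scale (adjusted p = 0.31 and 0.75). ADGRF1, an adhesion G protein-coupled receptor, passed the adjusted p but not the fold. It was at 28.9, 30.1 and 32.6 CPM in the vehicle and at 50.4, 41.5 and 42.3 CPM at the low dose, and rose by 0.55 ± 0.08 (adjusted p = 0.0229). The transcription factors TFAP4 and NFIA had log2 fold changes of −0.42 ± 0.07 and −0.56 ± 0.10 and missed the threshold (adjusted p = 0.0593 and 0.0683).

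RN7SL2 and its near copy RN7SL1, on chromosome 14 at 49862550-49862849 and 49586580-49586878, are RNA of the signal recognition particle, which brings ribosomes to the endoplasmic reticulum, and are made by RNA polymerase III. Their GENCODE transcripts are 98.33% identical, with 5 different positions of 300 aligned, so that reads of one can be given to the other. RN7SL2 was at 9.08, 6.36 and 4.79 CPM in the vehicle and at 67.3, 77.9 and 114 CPM at the low dose, and rose by 3.70 ± 0.52 on the log2 scale (adjusted p = 0.0128). RN7SL1 was at 7.43, 5.30 and 4.26 CPM and at 32.6, 34.7 and 40.9 CPM, and was not a DEG. All low dose libraries lay above all vehicle libraries in both. RN7SL2 was a DEG in 10 of 15 alternative fits, and at the high dose it was at 69.4, 230 and 54.4 CPM, the highest in high-dose replicate 2. The list of RNA polymerase III and ribosomal DNA RNAs held 10 tested genes, 2 above 0 and 8 below, where 49.7% of all genes were above 0. The 2 are RN7SL1 and RN7SL2. Of those below, ENSG00000280614, ENSG00000280800 and ENSG00000281181 have the same sequence, and ENSG00000278996 and ENSG00000280441 had the same values in every library. The members are thus not separate results. RMRP, on the same list, was at 0.991, 0.818 and 0.308 CPM in the vehicle and at 0.240, 0.634 and 0.0448 CPM at the low dose. RPPH1 was at 1.10, 0.818 and 0.967 CPM and at 0.172, 0.846 and 0.537 CPM. The libraries overlapped in RMRP and RPPH1.

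ENSG00000280614 and ENSG00000281181 had the highest levels among the 7 genes that fell. They are non-coding models of 923 bases on chromosome 21, minus strand, at 8393419-8394341 and 8437629-8438551, and each lies inside a RefSeq gene of 18S ribosomal RNA, RNA18SN3 and RNA18SN1. With another model, ENSG00000280800 (8210384-8211306, inside RNA18SN2), they are 100% identical over 923 bases. The first 120 bases of the transcript are shown as the sequence that all 3 share.
ENSG00000280614: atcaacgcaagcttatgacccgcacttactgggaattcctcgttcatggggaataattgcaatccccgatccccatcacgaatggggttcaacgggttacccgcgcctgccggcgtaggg
ENSG00000280614 was at 1080.1, 978 and 910 CPM in the vehicle and at 107, 206 and 115 CPM at the low dose, and fell by 2.80 on the log2 scale (SE 0.30, adjusted p = 0.0027). ENSG00000281181 was at 842, 978 and 910 CPM in the vehicle and had the same low dose values (log2 fold change −2.67 ± 0.30, adjusted p = 0.0027). Because the copies have the same letters, reads cannot be assigned to 1 of them, and the 2 DEGs are not separate results. ENSG00000280800 had the same low dose values and 842, 1114 and 910 CPM in the vehicle, and did not pass the test (log2 fold change −2.75 ± 0.53, adjusted p = 0.0762). The sum of the 3 models was 2730 to 3071 CPM in the vehicle, 319.8 to 617 CPM at the low dose, 271 to 375 CPM at the medium and 332 to 901 CPM at the high dose. The difference between the high and the low dose was not called for either gene (log2 difference −0.38 ± 0.28, adjusted p = 0.53). The strand setting of the counting was not given in the sources used here, so reads of these models cannot be told apart from reads of the 18S ribosomal RNA on the other strand.

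The other downregulated genes described here were also non-coding. SLC16A1-AS1, which overlaps the lactate transporter gene SLC16A1 on the other strand, was at 14.2, 11.97 and 10.2 CPM in the vehicle and at 7.32, 5.497 and 5.01 CPM at the low dose (−1.02 ± 0.17, adjusted p = 0.0446). SLC16A1 was at 139 and 138 CPM (−0.02 ± 0.08, adjusted p = 0.975). SLC16A1-AS1 was a DEG in 8 of 16 alternative fits (highest adjusted p 0.254). A library counted without strand mixes the reads of such pairs.

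FAM215B was at 5.83, 5.55 and 5.01 CPM in the vehicle and at 2.99, 3.00 and 2.37 CPM at the low dose (−0.96 ± 0.15, adjusted p = 0.0229), and was a DEG in 10 of 16 alternative fits. ENSG00000279573, a model of the GENCODE class TEC, which holds transcribed regions not yet tested by experiment, lies within BPTF, the largest subunit of a chromatin remodeller. It was at 3.03, 2.42 and 2.15 CPM in the vehicle and at 0.721, 0.388 and 0.582 CPM at the low dose (−2.15 ± 0.29, adjusted p = 0.00848), while BPTF had a log2 fold change of −0.07 ± 0.19. The libraries did not overlap in either. ENSG00000259891, a long non-coding RNA (lncRNA) near CHRAC1, was at 17.6, 14.7 and 13.8 CPM in the vehicle and at 8.93, 7.79 and 8.01 CPM at the low dose (−0.89 ± 0.12, adjusted p = 0.00758). SND1-IT1, an intronic transcript of SND1, and ARAP1-AS1, antisense to ARAP1, missed the threshold. SND1-IT1 was at 1.82, 1.61 and 1.27 CPM in the vehicle and at 0.447, 0.176 and 0.269 CPM at the low dose (adjusted p = 0.0651). ARAP1-AS1 had 78, 43 and 27 counts in the vehicle and 0, 2 and 0 at the low dose, a depth-adjusted ratio of 0.0125 with an exact 95% interval of 0.00150 to 0.0460 for counting error only (adjusted p = 0.0683).

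The direction differed between classes of gene when all genes at an unadjusted p under 0.05 were counted, which were 519 higher and 704 lower genes of 15374 (3.38% and 4.58%). Of 12453 protein-coding genes, 445 (3.57%) were higher and 393 (3.16%) lower. Of 1790 lncRNAs, 46 (2.57%) were higher and 200 (11.2%) lower, and of 183 TEC models 2 (1.09%) were higher and 34 (18.6%) lower. The median log2 fold changes were 0.01, −0.09 and −0.17 in these 3 classes. Median differences of lncRNAs from the vehicle mean were −0.05, −0.08 and −0.12 in the 3 low dose libraries and 0.04, 0.01 and −0.03 in the vehicle libraries, so that each low dose library was below each vehicle library. Among lncRNAs, 19.3% of the 176 that lie within a protein-coding gene on the same strand were lower, compared with 11.4% of the 394 on the opposite strand and 9.92% of the 1220 outside such genes. For TEC models on the same strand within a protein-coding gene it was 19 of 76 (25%), compared with 6 of 42 (14.3%) on the opposite strand and 9 of 65 (13.8%) outside. The medians of lncRNAs were −0.13 at the medium and −0.22 at the high dose, and those of TEC models −0.17 and −0.33. Without vehicle replicate 1 the lncRNA counts were 37 higher and 132 lower, and without low-dose replicate 3 they were 44 and 150. The balance over all genes changed with the fit, with 1480 higher and 1489 lower genes without high-dose replicate 2 and 933 higher and 884 lower with the offset for transcript length and GC content. Protein-coding genes were then 1335 higher and 1056 lower, and 837 and 620. LncRNAs were 77 higher and 255 lower, and 56 and 176, and TEC models 6 and 44, and 2 and 33.

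**Figure D4:**
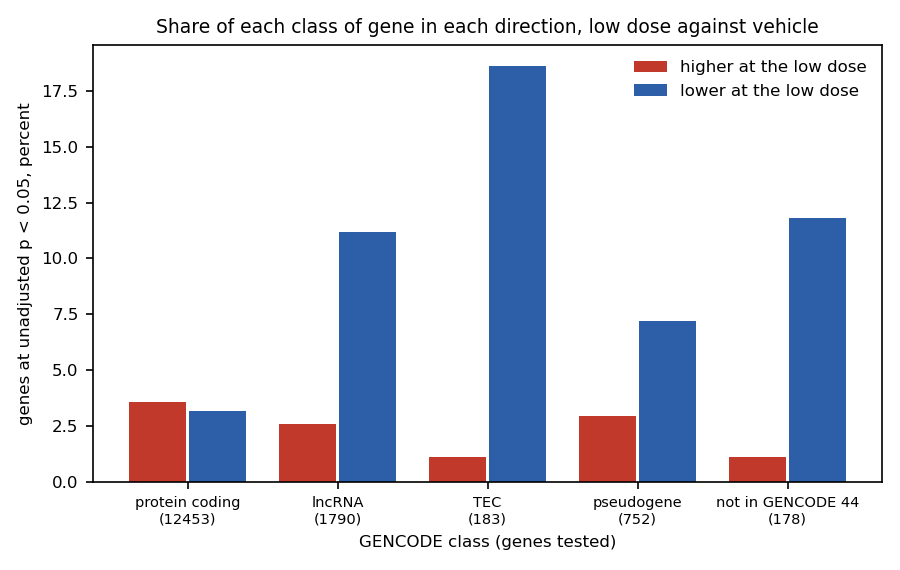
Bars give the percent of genes of each GENCODE class at an unadjusted p under 0.05 that were higher (red) or lower (blue) at the low dose than in the vehicle, with the number of genes tested under each class. The bars are nearly level for protein-coding genes (3.57% and 3.16%) and the blue bar is taller for lncRNAs (11.2%) and TEC models (18.6%).

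Small shifts of large protein families moved with the libraries. All 79 cytosolic ribosomal protein genes and 71 of 75 nuclear genes of oxidative phosphorylation were below 0 at the low dose, with medians of −0.21 and −0.22, and none was a DEG. At an unadjusted p under 0.05, 2 and 3 of them were lower (4.58% of all genes), a count that depended on the fit. Without high-dose replicate 2, a library of neither group, it was 42 of 79 and 28 of 75, where 1489 of 15674 genes were lower. On the 6 libraries alone it was 31 and 23 with edgeR, where 1198 of 15128 genes were lower. With DESeq2 on these 6 it was 41 and 37, where 969 of 15128 were lower. RPLP1, a stalk protein of the large subunit, was at 1841, 1369 and 1241 CPM in the vehicle and at 981, 970.2 and 1232 CPM at the low dose (−0.48 ± 0.21, adjusted p = 0.607). NDUFA3, a subunit of complex I, was at 96.6, 76.4 and 77.5 CPM and at 65.2, 67.8 and 67.3 CPM (−0.32 ± 0.10, adjusted p = 0.408). Vehicle replicate 1 was the highest library for both. The median difference of the ribosomal genes from the vehicle mean was 0.23, −0.08 and −0.15 in the 3 vehicle libraries and −0.26, −0.26 and −0.07 in the low dose libraries. Without vehicle replicate 1 the medians of the 2 lists were −0.09 and −0.07, and with an offset for transcript length and GC content −0.13 and −0.11. Over protein-coding genes, the quartile of shortest transcripts had a median log2 fold change of −0.08 and that of the longest 0.07, and vehicle replicate 1 stood at 0.12 and −0.10 in these quartiles. Vehicle replicate 1 was also the highest library for MT2A, a metallothionein, which binds metal ions. It was at 33.96, 24.9 and 25.7 CPM in the vehicle and at 22.4, 19.7 and 23.1 CPM at the low dose (−0.37 ± 0.12, adjusted p = 0.388).

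**Figure D5:**
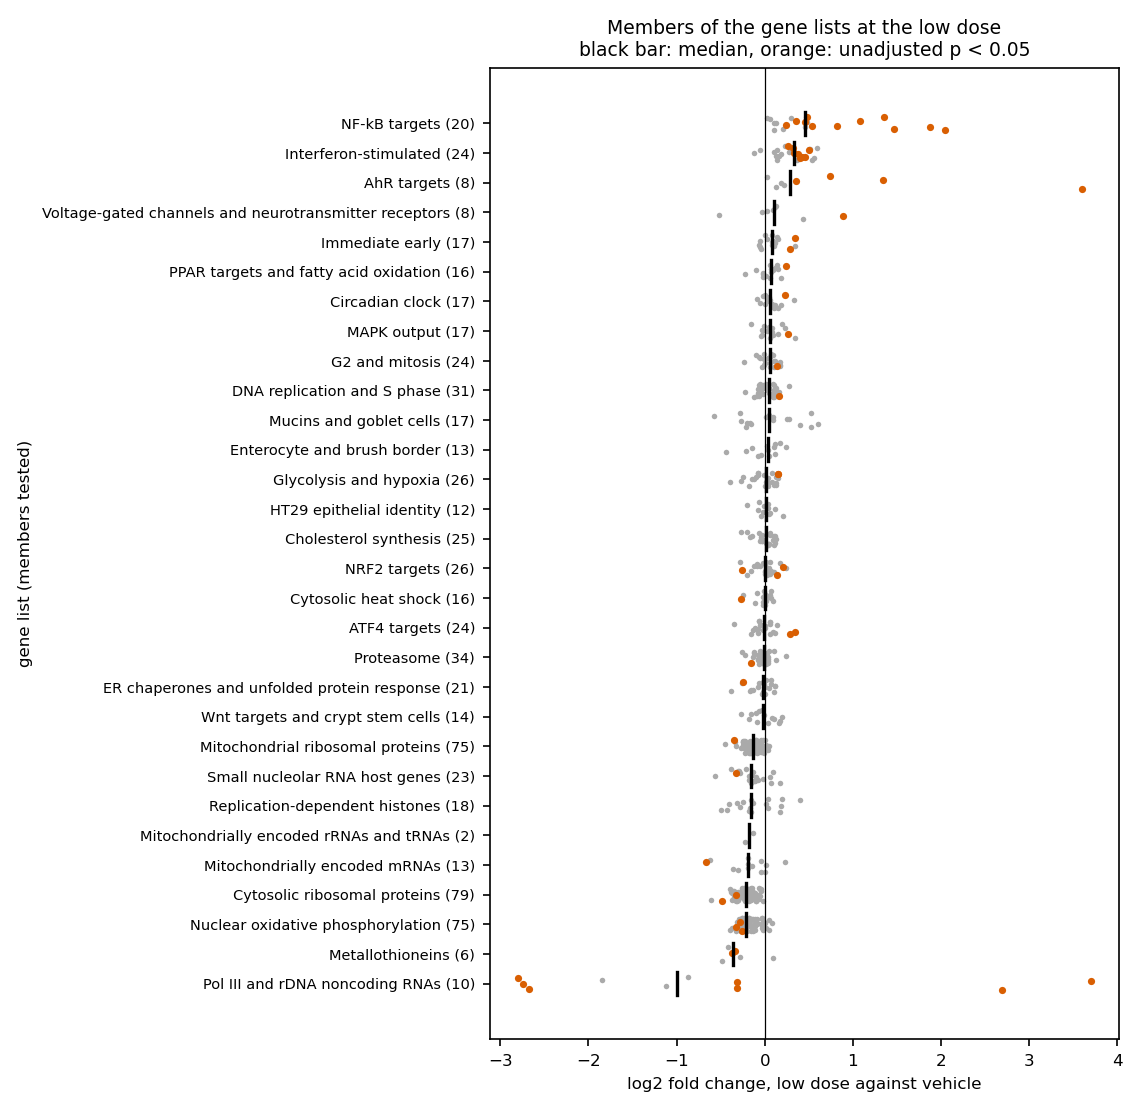
Log2 fold change at the low dose against vehicle (horizontal axis) of each tested member of 30 gene lists, with the number tested in brackets, a black bar at the median and members at an unadjusted p under 0.05 in orange. NF-kB targets, interferon-stimulated genes and AhR targets have the highest medians (0.45, 0.33 and 0.28). RNAs of RNA polymerase III and ribosomal DNA have the lowest (−0.995, 10 tested, near copies among them), followed by metallothioneins (−0.36, 6 tested). In these lists 2 and 0 members were higher and 5 and 2 lower at that p (3.38% and 4.58% of all genes). Ribosomal and oxidative phosphorylation genes lie in a tight group below 0, and most other medians lie within 0.1 of 0.

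Other stress and identity programmes were close to the background at the low dose. Of 26 NRF2 targets, which answer oxidants, 2 were higher and 1 lower at an unadjusted p under 0.05 (11.5%, where 7.95% of all genes were in either direction), with a median of 0.01. TXNRD1, a reductase of the NRF2 battery, had a log2 fold change of 0.21 ± 0.07 (adjusted p = 0.429). Of 24 ATF4 targets of the amino acid response, 2 were higher, with a median of −0.01. GDF15, a stress cytokine, had 0.28 ± 0.07 (adjusted p = 0.237). The lists of endoplasmic reticulum chaperones, heat shock, cholesterol synthesis and the proteasome had medians between −0.02 and 0.01, DNA replication and mitosis 0.05 and 0.06, and HT29 identity 0.02, with no DEG in any of them. The brush border, mucin and Wnt lists had no member at an unadjusted p under 0.05.

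Several genes that lead at the high dose did not pass the test at the low dose. MT-RNR1, the small ribosomal RNA of mitochondria, was at 1387, 1227 and 1249 CPM in the vehicle, at 1141, 1174 and 1002 CPM at the low dose and at 30977, 31764 and 28408 CPM at the high dose, with a log2 fold change of −0.22 ± 0.11 at the low dose against vehicle (adjusted p = 0.641) and a high minus low difference of 4.78 ± 0.12 on the log2 scale (adjusted p = 7.3e-10). NOX1, the superoxide-producing oxidase of the colon, was at 17.6, 18.7 and 16.9 CPM in the vehicle, at 16.7, 16.2 and 17.6 CPM at the low dose and at 7.16, 8.21 and 7.04 CPM at the high dose, with a difference of −1.18 ± 0.09 (adjusted p = 2.4e-05). The low dose libraries of MT-RNR1 all lay below those of the vehicle, while those of NOX1 overlapped them. The high minus low differences were 1.18 ± 0.10 for AKR1B10, an aldo-keto reductase, and 1.03 ± 0.08 for PCK2, the mitochondrial PEP carboxykinase (adjusted p = 3.4e-05 and 2.2e-05), while their log2 fold changes at the low dose against vehicle were −0.06 ± 0.09 and −0.05 ± 0.08. ADH1C and the glucose transporter SLC5A1 were lower at the high than at the low dose by −2.07 ± 0.23 and −0.81 ± 0.09 (adjusted p = 0.00036 for both), with 0.24 ± 0.19 and 0.03 ± 0.09 at the low dose against vehicle. GRIN1, a subunit of the NMDA receptor, was at 2.53, 2.64 and 1.98 CPM in the vehicle and at 2.13, 2.61 and 2.60 CPM at the low dose (0.03 ± 0.18, adjusted p = 0.983), and the high dose exceeded the low by 0.71 ± 0.17 (adjusted p = 0.045).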

How the data were processed

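RNA of HT29 cells was sequenced from libraries made with a directional kit. Reads were trimmed by the authors in Trim Galore, aligned with STAR and quantified with RSEM on GRCh38. The submitters' processing notes give versions 0.6.5, 2.7.3a and 1.3.3, and the study's methods name other versions of the first 2 tools. The deposited values are RSEM expected counts per gene, neither normalised nor filtered by the authors. They were rounded to whole numbers here. RSEM shares reads among near copies by estimation, so the values of such genes are uncertain.

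Genes were filtered with filterByExpr, scaled by TMM and tested in edgeR 4.0.16 under R 4.3.3 (quasi-likelihood F test, robust estimation) on all 12 libraries with the group as the only term. P-values were adjusted by Benjamini-Hochberg over the 15374 genes tested. A gene was a DEG below an adjusted p of 0.05 when its fold change exceeded 1.5. CPM values used TMM library sizes. The common dispersion was 0.0126 (a biological coefficient of variation of 11.2%). Standard errors came from the F statistic. Symbols, classes and positions came from GENCODE release 44 by Ensembl ID, which holds 98.8% of the IDs tested. Promoters came from RefSeq (GRCh38.p14).

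The named genes are the DEGs, the genes of next smallest p up to 30, the 2 members of smallest p in each of 33 gene lists (876 genes, 710 tested) and 11 genes that lead at the high dose or are named in the study. Further members of the AhR, NF-kB and interferon lists, and neighbours of named genes, were named after their values were seen. The members and lists were chosen with earlier results of these data known. The scripts were tested on simulated counts. Alternatives were DESeq2 1.42.0 on all libraries or on these 6, edgeR on these 6, DESeq2 size factors, no filter, a filter of 10 counts in every library, the replicate number as a block, each library of both groups left out, high-dose replicate 2 left out, library sizes without mitochondrial, RNA polymerase III and ribosomal DNA genes, and an offset for transcript length and GC content. No library was a duplicate of another (mean chi-square per gene of 4.04 to 21.9 within groups). A few genes and sequences are not reported here.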

Additional observations from a re-analysis of the deposited data

How the results depend on the processing

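The number of DEGs at the low dose was 17 and ranged from 10 to 15 when 1 of the 6 libraries was left out, lowest without vehicle replicate 2. It was 59 with DESeq2 on all 12 libraries, 76 with DESeq2 and 51 with edgeR on the 6 libraries alone, 34 without the filter, 109 without high-dose replicate 2 and 32 with the offset for length and GC content. In the other alternatives it stayed within 1.5 times the count. With the replicate block it was 17. The correlations of same-numbered vehicle and low dose libraries were −0.27, 0.24 and −0.27, and those of other-numbered libraries −0.33 to 0.37. With 3 libraries a group, these values cannot decide whether the numbers pair the libraries. Between the high and the low dose there were 243 DEGs, 458 with no minimum fold change and 160 to 335 when 1 library was left out, lowest without low-dose replicate 2 and highest without high-dose replicate 2. Of the 96 named genes in up to 16 alternatives, 1367 values kept direction and side of the threshold, 79 passed it only in the alternative, 54 lost it and 12 changed sign. Those 12 belong to genes close to 0. When 1 library was left out, the log2 fold change ranged from −0.373 to 0.0701 for CD14, from −0.0851 to 0.3199 for PECAM1, from −0.0384 to 0.0723 for SLC5A1, from −0.0813 to 0.00754 for PCK2 and from −0.0876 to 0.121 for GRIN1. With the offset it was 0.0558 for AKR1B10 and −0.023 for GRIN1. The causes were not tested. At the depth of these libraries, C3 and MIR3142HG had 0 to 1 counts in each vehicle library, so the size of their change has wide limits.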
